A study of Mus musculus with 36 samples.

Results

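Eph receptors and ephrins were followed through 36 RNA-seq libraries of mouse intestinal organoids, which are epithelial structures grown from isolated crypts. The genes were 9 listed symbols out of 52636 genes in the count tables: the receptors Epha1, Epha2, Epha4, Ephb2, Ephb3 and Ephb4 and the ligands Efna1, Efnb1 and Efnb2. They are 9 of the 22 Eph receptor and ephrin genes of the mouse, and all 9 passed both the detection limit of a mean of 0.5 CPM (counts relative to the scaled size of a library) and the filter on low counts. The organoids came from the jejunum of C57BL/6 mice and fell into 6 groups of 6 replicates. Control IgG was given in complete media, in QCM, in SCM and in Wnt5a medium, and anti-Ptk7 took its place in a second set of SCM and of Wnt5a cultures. QCM and SCM stand for medium in which mouse embryonic fibroblasts had been kept, quiescent ones for QCM and senescent ones for SCM, and Wnt5a medium is complete media with that ligand added. Ptk7 is a receptor of the noncanonical Wnt pathway, against which the antibody was directed. Crypts came from 6 mice, but the labels do not state which replicate number is which mouse.

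Eph receptors are receptor tyrosine kinases, and ephrins are ligands that remain attached to the membrane of the neighbouring cell. The A ephrins are held by a lipid anchor, while the B ephrins span the membrane and also signal into the cell that bears them. Receptors of the A class mostly bind A ephrins and those of the B class B ephrins, with EphA4 known to bind both. In the intestine, EphB2 and EphB3 are products of canonical Wnt target genes and are highest on cells of the crypt base, ephrin-B1 and ephrin-B2 are higher toward the villus, and contact between them keeps the populations apart. EphA2 is an epithelial receptor at cell-cell contacts, and EphB4 has ephrin-B2 as its main ligand.

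The libraries held between 9581589 and 21029769 counts, with a median of 13490071, and the lowest count of any of the 9 genes in any library was 85. The 5 epithelium markers summed to between 4490 and 12700 CPM in a library. Of 8 fibroblast markers, 7 were under the detection limit and Col3a1, Dcn and Thy1 were at 0 in every library, and the list summed to at most 7.36 CPM. The endothelium markers summed to at most 2.83 CPM and the immune markers to at most 3.79 CPM. RNA was taken from whole cultures, so a change in the number of cells of a type and a change in RNA per cell cannot be told apart.

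Between genes, levels were compared as mean CPM per kilobase of exon over the 36 libraries. On this scale Ephb4 came first of the 9 genes at 47.2 CPM per kilobase, followed by the ligands Efna1 at 31.9, Efnb1 at 29.6 and Efnb2 at 16.8. Among the other receptors, Epha2 stood at 14.5, Epha1 at 9.86, Ephb3 at 9.08, Ephb2 at 8.9 and Epha4 at 2.51 CPM per kilobase of exon. The order depended on the length used and on the group. The study's methods speak of reads in coding sequences, yet lincRNAs and pseudogenes held counts too, so both scales are given and neither is preferred. Per kilobase of coding sequence, Efnb2 came first at 115 CPM, Efnb1 had 98.8, Efna1 95.1, Ephb4 73.3 and Ephb2 37.9, whereas Epha4 was last on either scale at 6.83. These are means over groups that differ. In complete media alone, Efna1 came first per coding length at 100 CPM per kilobase, with Efnb2 at 83.9 and Efnb1 at 82.4, and in Wnt5a + IgG, Epha2 at 21.8 CPM per kilobase of exon stood beside Efnb2 at 21.3.

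**Figure D1:**
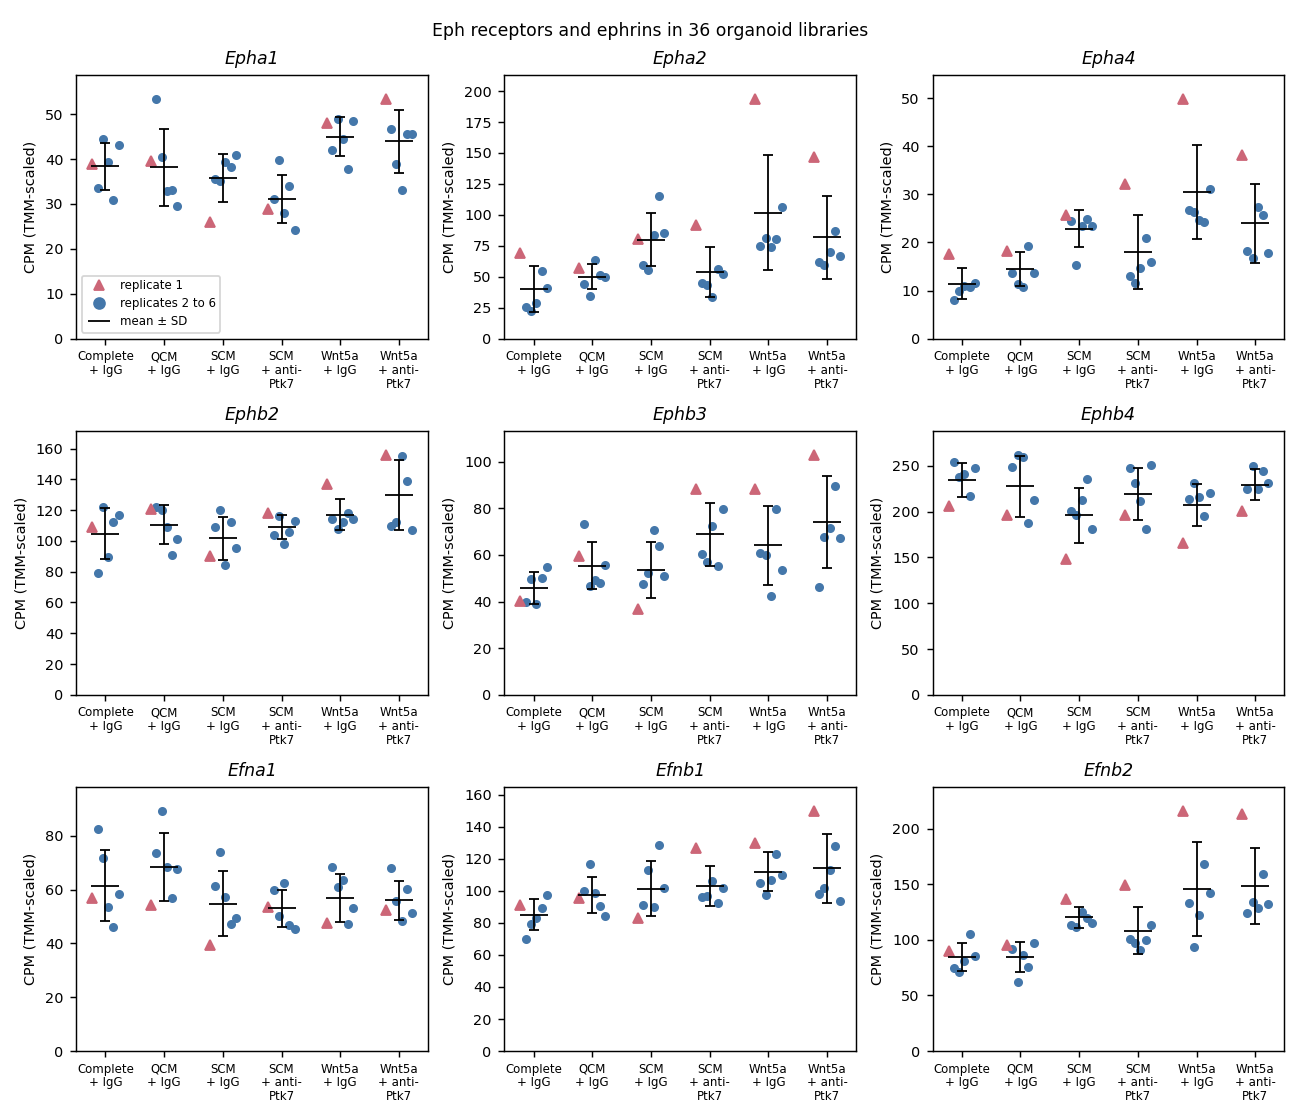
TMM-scaled CPM (vertical axis, linear) of each of the 9 genes in the 6 libraries of each group, with the mean and SD as black bars and the libraries of replicate number 1 as triangles. The means of Epha2, Epha4 and Efnb2 are lowest in complete media and QCM and highest in the Wnt5a groups, an order that the medians of Epha2 and Epha4 do not keep, and replicate 1 of Wnt5a + IgG stands above the other 5 libraries at 194 CPM for Epha2 and 49.9 CPM for Epha4.

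To ask which of these genes respond to senescent medium, SCM + IgG was compared with complete media + IgG. Epha2 and Epha4, both receptors of the A class, were called higher, and no gene of the 9 was called lower. Calls needed an adjusted p below 0.05 in the quasi-likelihood test of edgeR and more than a 1.5-fold change, and 4.96% of the 15497 genes tested were called higher by this rule, against 2 of the 9. The median log2 difference was 0.23 over the 9 genes and 0.01 over all genes tested.

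Epha2 ranged from 22.5 to 69 CPM in complete media with a median of 34.7, and from 55.1 to 115 CPM in SCM with a median of 81.8. The groups overlapped through replicate 1 of complete media alone, which lay above the lowest SCM libraries. The log2 fold change was 0.99 ± 0.274 (s.e., n = 6 per group; edgeR, adjusted p = 0.0151), a 1.98-fold difference. SCM exceeded complete media in all 6 replicate numbers, by 0.21 to 1.55 on the log2 scale. This call was lost when replicate 3 of complete media, the lowest library for Epha2, was left out (edgeR, adjusted p = 0.0533).

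Epha4, which binds ligands of both classes, was the least abundant of the 6 receptors. It ranged from 7.99 to 17.6 CPM in complete media with a median of 10.8, and from 15.2 to 25.7 CPM in SCM with a median of 24. Overlap came from replicate 1 of complete media and replicate 3 of SCM alone. The log2 fold change was 1.00 ± 0.236 (s.e., n = 6 per group; edgeR, adjusted p = 0.00398), and SCM was higher in all 6 replicate numbers.

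Efnb2, the transmembrane ligand ephrin-B2, ranged from 71.3 to 105 CPM in complete media with a median of 83.5, and from 112 to 137 CPM in SCM with a median of 117. No SCM library overlapped with complete media. Its log2 fold change of 0.51 ± 0.151 passed the test (edgeR, adjusted p = 0.0236), but the fold change of 1.42 was under the cutoff, so the gene was not called. Without the cutoff on fold change, 7.43% of all genes tested were higher.

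Recombinant Wnt5a in complete media was compared with the same control libraries, so its values are not independent of those for SCM. Epha2, Epha4 and Efnb2 were called higher, 3 of the 9 genes against 8.29% of all genes tested, and none was called lower. The median log2 difference was 0.39 over the 9 genes and again 0.01 over all genes.

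Epha2 ranged from 74 to 194 CPM with Wnt5a, with a median of 81.2, and every library exceeded the highest complete media library at 69 CPM. The log2 fold change was 1.34 ± 0.275 (s.e., n = 6 per group; edgeR, adjusted p = 0.000538). Replicate 1 was far above the others, the next highest being 106 CPM. With all libraries numbered 1 left out, an alternative chosen after the data were seen, the log2 fold change of Epha2 was 1.27 (edgeR, adjusted p = 5.5e-05).

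Epha4 ranged from 24.2 to 49.9 CPM with Wnt5a, with a median of 26.5, again without overlap with complete media. Its log2 fold change of 1.42 ± 0.236 (s.e., n = 6 per group; edgeR, adjusted p = 4.63e-05) was the largest of the 9 genes. For Efnb2 the Wnt5a libraries ranged from 93.9 to 216 CPM with a median of 137, and replicate 3 fell within the range of complete media. The log2 fold change of Efnb2 was 0.78 ± 0.151 (s.e., n = 6 per group; edgeR, adjusted p = 0.000256). Wnt5a exceeded complete media in all 6 replicate numbers for each of these 3 genes.

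A pair of further B-class genes passed the test with Wnt5a below the cutoff on fold change. Ephb3, the crypt-base receptor, ranged from 38.8 to 54.8 CPM in complete media and from 42.3 to 88.4 CPM with Wnt5a, with overlap, at a log2 fold change of 0.49 ± 0.174 (edgeR, adjusted p = 0.0413). Its adjusted p reached 0.164 when single libraries were left out in turn (edgeR). With all libraries numbered 1 left out, the log2 fold change of Ephb3 was 0.34 (edgeR, adjusted p = 0.17). Efnb1, the ligand ephrin-B1, ranged from 70.3 to 97.7 CPM and from 97.4 to 130 CPM, at a log2 fold change of 0.39 ± 0.112 (edgeR, adjusted p = 0.00986). The Efnb1 ranges met at a single library of each group. Without the cutoff on fold change, 12.5% of all genes tested were higher with Wnt5a.

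**Figure D2:**
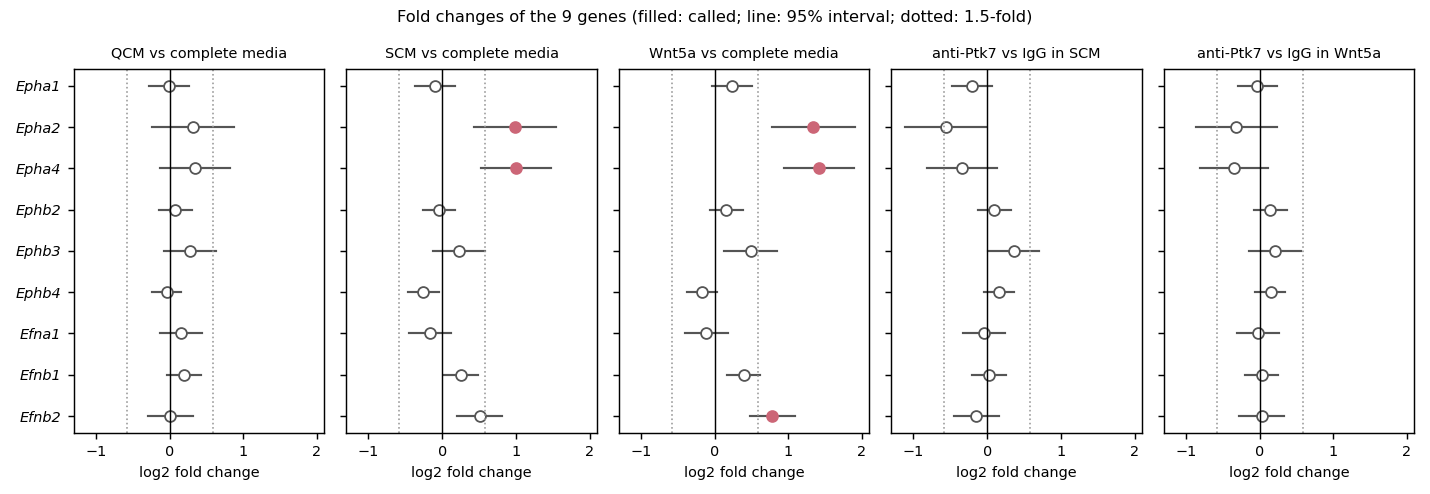
Log2 fold change (horizontal axis) of each of the 9 genes in 5 comparisons with its 95% interval as a line. Filled points are called, dotted lines mark a 1.5-fold change, and the called genes are Epha2 and Epha4 in SCM and Epha2, Epha4 and Efnb2 with Wnt5a.

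The bases before the transcription start are shown for the 3 genes that were called, since they moved in the same direction in the same media. The sequences are the 250 bases before the start in RefSeq on GRCm38.p6, 5′ to 3′ along the gene, and each gene had an entry. They lie at chr4:141300971-141301220 on the plus strand for Epha2, chr1:77515089-77515338 on the minus strand for Epha4 and chr8:8661243-8661492 on the minus strand for Efnb2. Capitals mark matches on either strand to the cores bound by TEAD factors (GGAATG) and by TCF/LEF factors (CTTTGA), and AP-1 (TGANTCA) was searched as well; no matches overlapped.
Epha2: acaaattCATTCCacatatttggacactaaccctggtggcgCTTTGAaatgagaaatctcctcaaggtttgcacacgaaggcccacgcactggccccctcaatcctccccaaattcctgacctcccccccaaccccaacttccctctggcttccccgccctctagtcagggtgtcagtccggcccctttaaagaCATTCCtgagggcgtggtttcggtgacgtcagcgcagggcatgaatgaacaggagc
Epha4: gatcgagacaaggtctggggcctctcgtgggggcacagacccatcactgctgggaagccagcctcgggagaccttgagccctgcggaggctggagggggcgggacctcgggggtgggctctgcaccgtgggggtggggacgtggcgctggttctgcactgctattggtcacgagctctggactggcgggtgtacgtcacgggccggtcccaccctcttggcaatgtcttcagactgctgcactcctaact
Efnb2: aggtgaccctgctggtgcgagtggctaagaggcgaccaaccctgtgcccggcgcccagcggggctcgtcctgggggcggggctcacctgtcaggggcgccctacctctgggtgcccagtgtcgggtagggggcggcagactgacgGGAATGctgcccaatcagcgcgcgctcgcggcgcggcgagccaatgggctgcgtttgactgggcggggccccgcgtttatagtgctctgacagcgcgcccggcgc
The Epha2 window held 2 TEAD matches and 1 TCF/LEF match, the Efnb2 window held 1 TEAD match, and the Epha4 window held none of the 3 motifs. Among the other 6 genes, Epha1, which was not called in any comparison, held 1 TEAD match, and the rest held none of the 3 motifs. Of 32851 promoter windows of the same length, 12.6% held the TEAD letters, 13.8% those of TCF/LEF and 6.75% those of AP-1. These matches describe the letters in the windows only.

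The remaining genes stayed within narrower limits in SCM. Ephb2, the main B receptor of the crypt base, had 105 ± 16.7 CPM in complete media and 102 ± 14.2 CPM in SCM (s.d., n = 6 each), with a 95% interval of the log2 difference from -0.26 to 0.18. Ephb4 had 234 ± 18.3 CPM in complete media and 196 ± 29.8 CPM in SCM, at a log2 difference of -0.26 with an interval from -0.46 to -0.05 that did not pass the adjusted test (edgeR, adjusted p = 0.0915). With the replicate number as a block, Ephb4 passed the test at -0.26 (edgeR, adjusted p = 0.0193), under the cutoff on fold change. Epha1 differed by -0.10 on the log2 scale, with an interval from -0.37 to 0.17, and Efna1, the ligand ephrin-A1, by -0.16, with an interval from -0.45 to 0.12. The intervals of Ephb2, Ephb4, Epha1 and Efna1 all lay within a 1.5-fold change in either direction.

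With Wnt5a, Ephb2 had 117 ± 10.4 CPM and an interval of the log2 difference from -0.06 to 0.38. Ephb4 had 207 ± 23.4 CPM and an interval from -0.38 to 0.03. Epha1 had 45 ± 4.38 CPM against 38.4 ± 5.33 CPM in complete media, and Efna1 56.9 ± 8.81 CPM against 61.5 ± 13.3 CPM. These intervals, too, were within a 1.5-fold change, and none of the 4 genes was called in any comparison. By replicate number, Epha1 was higher with Wnt5a in all 6, with log2 differences from 0.14 to 0.33. Ephb4 was lower in all 6, from -0.32 to -0.04, while Ephb2 was higher in 4 of 6 and Efna1 in 2 of 6.

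QCM served as the control for the conditioning of the medium. None of the 9 genes was called against complete media, at a background of 0.374% of genes called in either direction, and none of the 9 had an unadjusted p under 0.05. Voom with limma and DESeq2 called none of the 9 either. Epha2 ranged from 34.3 to 63.7 CPM and Epha4 from 10.7 to 19.2 CPM in QCM, within or near the ranges of complete media. Their log2 differences were 0.32 (95% interval -0.24 to 0.87) and 0.34 (interval -0.13 to 0.82), which leaves room for a change of the size of the cutoff.

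Between SCM and QCM, none of the 9 genes was called in the model without the replicate number, in which 0.903% of all genes were called, while 5 of the 9 had an unadjusted p under 0.05, as had 2633 of the 15497 genes tested. Voom with limma and DESeq2 called none either. For Epha2, SCM was higher in all 6 replicate numbers, at a log2 difference of 0.67 ± 0.271 (edgeR, adjusted p = 0.19). With the replicate number as a block it was 0.65 ± 0.163 and was called (edgeR, adjusted p = 0.00906). Epha4 moved likewise, from 0.66 ± 0.232 (edgeR, adjusted p = 0.128) to 0.68 ± 0.144 with the block (edgeR, adjusted p = 0.00223). The block called 2 of the 9 genes higher, against 2.74% of all genes tested. Efnb2 did not overlap between QCM, at 62.3 to 96.9 CPM, and SCM, at 112 to 137 CPM. Its log2 difference of 0.50 ± 0.15 was under the cutoff in either model (edgeR, adjusted p = 0.0699 without the block and 0.00125 with it). The other 2 genes with an unadjusted p under 0.05 were lower in SCM. Efna1 was lower in all 6 replicate numbers, at -0.32 ± 0.141 (edgeR, adjusted p = 0.236 without the block and 0.0454 with it, under the cutoff), and Ephb4 in 5 of 6, at -0.22 ± 0.1 (edgeR, adjusted p = 0.254).

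Wnt5a and SCM did not differ in any of the 9 genes by the test, at a background of 0.69% of genes called, and 1 of the 9, Epha1, had an unadjusted p under 0.05, as had 2936 of the 15497 genes tested. Voom with limma and DESeq2 called none. Epha1 had 35.8 ± 5.37 CPM in SCM and 45 ± 4.38 CPM with Wnt5a, at a log2 difference of 0.33 (95% interval 0.06 to 0.60; edgeR, adjusted p = 0.161). For Epha2 the difference was 0.35 with an interval from -0.19 to 0.90, and for Epha4 0.41 with an interval from -0.05 to 0.88. These widths do not show that both media act alike.

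To ask whether Ptk7 is needed for the higher levels, anti-Ptk7 was compared with IgG in each medium. In SCM, none of the 9 genes was called in the model without the replicate number, in which 1.23% of all genes were called, and 2 of the 9 had an unadjusted p under 0.05, as had 2654 of the 15497 genes tested. Voom with limma and DESeq2 called none. Epha2 ranged from 55.1 to 115 CPM with IgG and from 33.9 to 92 CPM with anti-Ptk7, with medians of 81.8 and 48.9 CPM. It was lower with the antibody in 5 of 6 replicate numbers, replicate 1 being the exception, and the log2 difference was -0.56 ± 0.271 (edgeR, adjusted p = 0.279). With the replicate number as a block, Epha2 fell, at -0.61 ± 0.163 (edgeR, adjusted p = 0.0189), and 1.52% of all genes were called lower in that model, against 1 of the 9.

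Epha4 ranged from 15.2 to 25.7 CPM with IgG and from 11.5 to 32.2 CPM with anti-Ptk7 in SCM, and replicate 1 was again the only number in which the antibody library was higher. Its log2 difference was -0.34 ± 0.231 (edgeR, adjusted p = 0.479), and -0.41 with the block (edgeR, adjusted p = 0.0832). Efnb2 differed by -0.15, with an interval from -0.45 to 0.16. Ephb3 went the other way, from 53.6 ± 12 CPM to 68.9 ± 13.5 CPM, at 0.36 ± 0.173 on the log2 scale (edgeR, adjusted p = 0.277).

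In Wnt5a medium, anti-Ptk7 changed none of the 9 genes past the test. The background was 0.884% of genes called, no gene of the 9 had an unadjusted p under 0.05, and voom with limma and DESeq2 called none. Epha2 had 102 ± 46.6 CPM with IgG and 81.8 ± 33.1 CPM with anti-Ptk7, lower in 5 of 6 replicate numbers, and the 95% interval of its log2 difference ran from -0.86 to 0.23. Epha4 had 30.5 ± 9.83 and 24 ± 8.22 CPM, with an interval from -0.81 to 0.12. Efnb2 had 146 ± 42.1 and 149 ± 33.9 CPM, with an interval from -0.28 to 0.33.

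The difference between the antibody's effect in Wnt5a medium and that in SCM was tested directly. It was called for 0 of the 9 genes, as for 0% of all genes tested, and no gene of the 9 had an unadjusted p under 0.05, while voom with limma and DESeq2 called none of the 9 either. For Epha2 the difference was 0.25 on the log2 scale with an interval from -0.52 to 1.02, which reaches past the 1.5-fold cutoff upward only.

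Ordered by mean, Epha2 ran from complete media (40.3 CPM) through QCM (50.1), SCM + anti-Ptk7 (53.8), SCM + IgG (79.7) and Wnt5a + anti-Ptk7 (81.8) to Wnt5a + IgG (102 CPM). By median the order was another one, from complete media (34.7 CPM) through SCM + anti-Ptk7 (48.9), QCM (50.6), Wnt5a + anti-Ptk7 (68.2) and Wnt5a + IgG (81.2) to SCM + IgG (81.8 CPM). With all libraries numbered 1 left out, the log2 difference of Epha2 between Wnt5a and SCM was 0.06 in place of 0.35. The only step between neighbours larger than the larger of the 2 SDs was the one from SCM + anti-Ptk7 to SCM + IgG. Epha4 had the same order of group means, from 11.4 to 30.5 CPM, but its median in SCM + IgG (24 CPM) was above that in Wnt5a + anti-Ptk7 (22 CPM), and no step exceeded the SD. For Efnb2 the step from QCM (84.8 CPM) to SCM + anti-Ptk7 (108 CPM) was the only one to do so, and both Wnt5a groups, at 146 and 149 CPM, were alike within their spread.

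**Figure D3:**
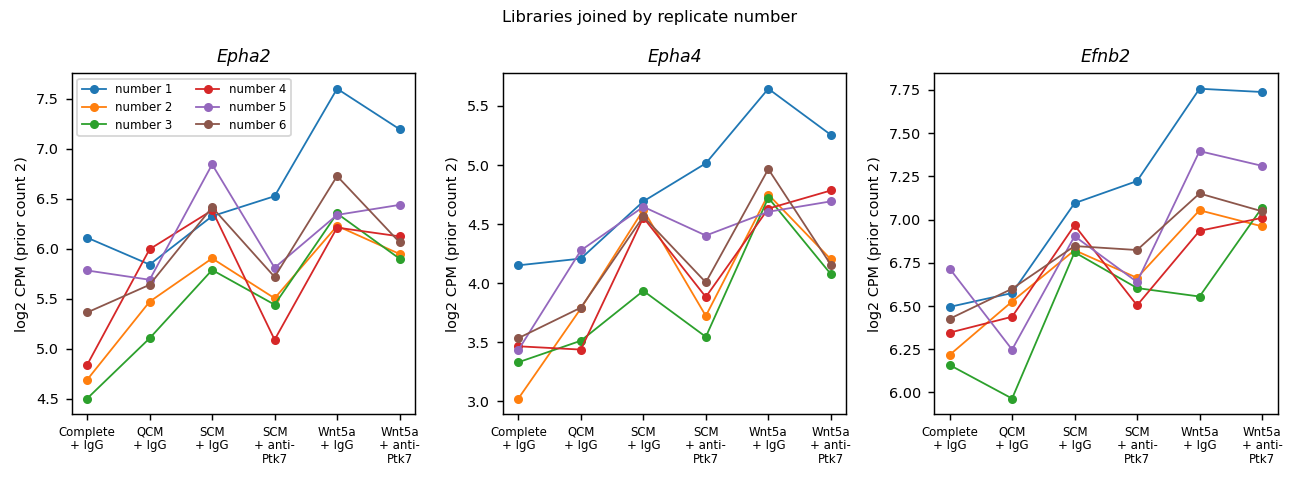
Log2 CPM (vertical axis, prior count of 2) of Epha2, Epha4 and Efnb2 in the 6 groups, with libraries of the same replicate number joined by a line. The line of number 1 is the highest in 4 of 6 groups for Epha2, 5 of 6 for Epha4 and 4 of 6 for Efnb2, and all 6 lines are higher in SCM + IgG and in Wnt5a + IgG than in complete media.

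The spread within a group was tied to the replicate number. For Epha2, libraries numbered 1 lay on average 0.66 above their group mean on the log2 scale and those numbered 3 lay 0.43 below it, being the lowest in 4 of 6 groups. Number 1 was also above the group mean by 0.60 for Epha4 and by 0.35 for Efnb2. The part of the mouse of origin in this was not tested, since the labels do not give it.

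Over all 36 libraries, the 9 genes were correlated in pairs after the group means were removed, and the 6 replicate numbers were permuted whole, which gives 720 arrangements and a smallest p of 0.00139. Of 36 pairs, 6 had an adjusted p under 0.05 for Pearson's r, and 5 of them also for Spearman's coefficient. Epha2 and Epha4 had r = 0.77 (exact permutation p = 0.00278, adjusted 0.0333) and a Spearman coefficient of 0.70 (exact permutation p = 0.00278, adjusted 0.025). Epha2 and Efnb2 had r = 0.76 and a Spearman coefficient of 0.73 (exact permutation p = 0.00139 for each, adjusted 0.025). Without the 2 libraries farthest from the median of Epha2, r was 0.70 and 0.66 for these pairs. With the means of the replicate numbers removed as well, r was 0.33 and 0.39.

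The crypt-base receptor Ephb2 and the ligand Efnb1 formed a pair of another kind, with r = 0.71 and a Spearman coefficient of 0.74 (exact permutation p = 0.00139 for each, adjusted 0.025). Their r was 0.65 without the 2 farthest libraries and 0.70 with the replicate number means removed. Ephb3 and Efnb2 had r = 0.59 (exact permutation p = 0.00694, adjusted 0.0417) and a Spearman coefficient of 0.57 (exact permutation p = 0.00278, adjusted 0.025), with 0.52 and 0.61 under the same removals. Epha2 and Ephb3 had r = 0.44 (exact permutation p = 0.00556, adjusted 0.04) and a Spearman coefficient of 0.40 (exact permutation p = 0.00694, adjusted 0.0417), with r = 0.28 without the 2 farthest libraries and 0.34 with the replicate number means removed. Epha4 and Ephb4 were opposed, with r = -0.62 (exact permutation p = 0.00556, adjusted 0.04) and a Spearman coefficient of -0.55 (exact permutation p = 0.0111, adjusted 0.0571), and r was -0.05 with the replicate number means removed. Ephb2 and Ephb3 passed by Spearman's coefficient alone, at 0.52 (exact permutation p = 0.00694, adjusted 0.0417). Their r was 0.49 (exact permutation p = 0.0139, adjusted 0.0556), and 0.47 with the replicate number means removed.

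**Figure D4:**
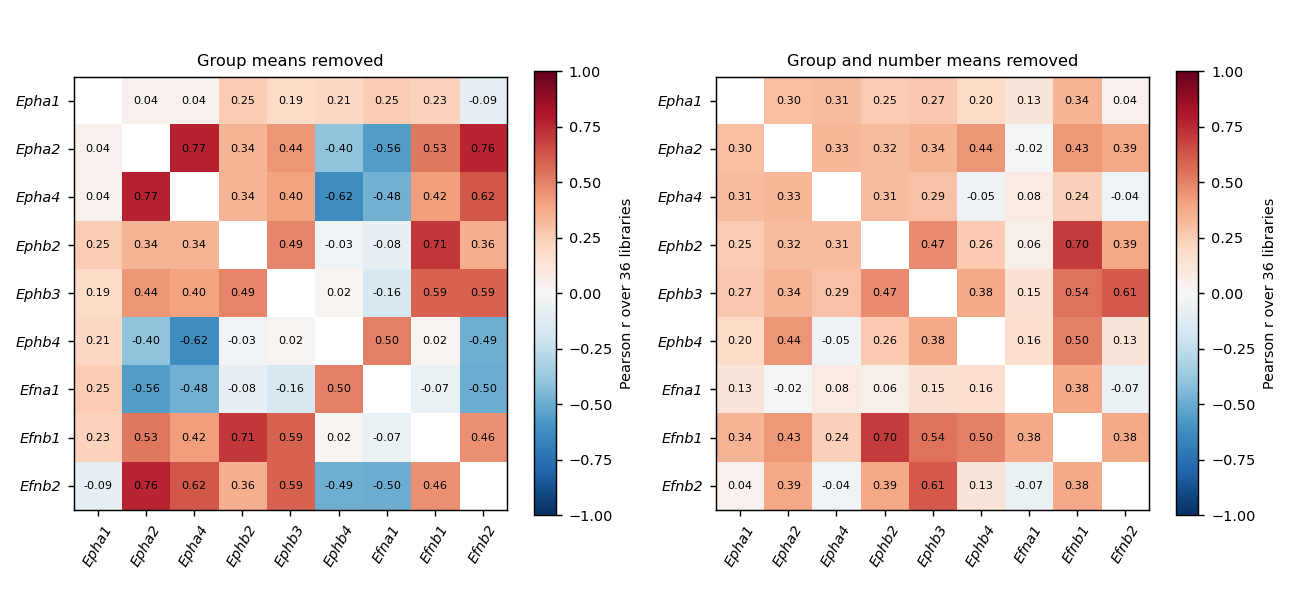
Pearson's r over 36 libraries for each pair of the 9 genes (colour scale from -1 to 1), with group means removed on the left and with group and replicate number means removed on the right. The pair of Ephb2 and Efnb1 keeps its value (0.71 and 0.70), whereas the pair of Epha2 and Epha4 goes from 0.77 to 0.33.

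The genes most like each member in log2 CPM over the 36 libraries, of 10818 searched, are given as a description, since the libraries share groups and replicate numbers. Epha2 was followed by Pard6b (r = 0.96), Ajuba (0.94) and Kctd10 (0.93), and Epha4 by Lrrfip1 (0.94), Anxa2 (0.94) and Anxa5 (0.93). Efnb2 was followed by Agps, Itgb4 and Antxr2 at 0.93 each. For Efnb1 the nearest genes were Inava (0.86), Spats2l (0.85) and Jup (0.83), and for Ephb4 Plcb3 (0.87), Fads2 (0.82) and Dpysl5 (0.82). The nearest genes of Ephb2 were Tulp4 (0.79), Zmiz1 (0.75) and Irf2bpl (0.73), and those of Ephb3 Etv3 (0.79), Ccdc93 (0.78) and Abca7 (0.76). Efna1 was nearest to Gpi1 (0.78), Pfkl (0.76) and Pcif1 (0.72), and Epha1 to Arfgap1 (0.73), Ddb1 (0.72) and Cdcp1 (0.70).

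Of the other 13 Eph receptor and ephrin genes, 9 were under the detection limit and 5 entered the test. Efna4, encoding the ligand ephrin-A4, was the only abundant one, at 29.5 CPM over all libraries. It ranged from 27 to 36.4 CPM in complete media with a median of 30.2, and from 19.9 to 25.9 CPM with Wnt5a + IgG with a median of 21. With Wnt5a + anti-Ptk7 it ranged from 27.3 to 32 CPM with a median of 31.2, so that the Wnt5a + IgG libraries overlapped with neither group. The log2 difference of Efna4 was -0.52 ± 0.103 for Wnt5a against complete media (edgeR, adjusted p = 0.000335) and 0.50 ± 0.103 for anti-Ptk7 against IgG in Wnt5a (edgeR, adjusted p = 0.00598), both under the cutoff on fold change and both resting on the same Wnt5a + IgG libraries. In SCM, Efna4 had 30 ± 2.28 CPM with IgG and 34.4 ± 4.15 CPM with anti-Ptk7 (edgeR, adjusted p = 0.318). The antibody's effects on Efna4 in these media differed by 0.30 (95% interval 0.01 to 0.59; edgeR, adjusted p = 0.999).

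Efna3, encoding ephrin-A3, fell from 3.03 ± 0.401 CPM in complete media to 1.56 ± 0.689 CPM with Wnt5a, at a log2 fold change of -0.93 ± 0.34 (edgeR, adjusted p = 0.0453), a call that was made in 25 of 47 alternatives. In SCM it had 1.61 ± 0.799 CPM, a difference of -0.92 (edgeR, adjusted p = 0.0737) that was called with the replicate block (-1.01, adjusted p = 0.0326), by both voom fits and by DESeq2. With anti-Ptk7 in SCM, Efna3 had 3.3 ± 1.38 CPM, a log2 difference of 1.04 (edgeR, adjusted p = 0.0905) that was likewise called with the block (adjusted p = 0.0387), by both voom fits and by DESeq2. Ephb6, a receptor whose kinase domain is inactive, had a mean of 0.4996 CPM and counts as not detected over the series. It had no count in any complete media library and counts in 5 of 6 Wnt5a + IgG libraries, at a mean of 1.52 CPM. This was at least 36-fold higher than a floor of 3 counts over the complete media group. Counts of Ephb6 were not confined to Wnt5a + IgG, since other groups held some as well. No test is given for Ephb6, since it passed the filter on low counts only through the groups in which it had counts.

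Genes that act with Eph receptors and ephrins inside the cell or at the membrane made up a list of 26, of which 25 were tested. In SCM, 1 was called higher and 2 lower, against 4.96% and 1.12% of all genes, and with Wnt5a 4 were higher and 2 lower, against 8.29% and 1.88%. The 4 include Grip1, whose call carries no weight, as set out below. The median log2 fold change of the list was -0.04 in SCM and 0.06 with Wnt5a. Kalrn, the exchange factor kalirin, ranged from 3.76 to 13.2 CPM in complete media, from 9.7 to 17.1 CPM in QCM, from 17.4 to 28.8 CPM in SCM and from 17.1 to 52 CPM with Wnt5a, and neither SCM nor Wnt5a overlapped with complete media. Its log2 fold changes were 1.38 ± 0.281 in SCM (edgeR, adjusted p = 0.00102) and 1.77 ± 0.282 with Wnt5a (edgeR, adjusted p = 2.42e-05). QCM differed from complete media by 0.70 (edgeR, adjusted p = 0.278) and SCM from QCM by 0.68 (edgeR, adjusted p = 0.182), and with the replicate block both were called, at 0.77 (adjusted p = 0.0219) and 0.66 (adjusted p = 0.0221).

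Vav3 and Arhgef19 fell in SCM and with Wnt5a. Vav3 had 59.8 ± 6.76 CPM in complete media, 32.7 ± 4.96 CPM in QCM, 25.1 ± 8.65 CPM in SCM and 23.4 ± 8.9 CPM with Wnt5a, and Arhgef19 had 32.3 ± 4.59, 27.9 ± 5.9, 19.3 ± 4.58 and 18.7 ± 4.44 CPM. Their log2 fold changes in SCM were -1.25 (edgeR, adjusted p = 0.000561) and -0.75 (edgeR, adjusted p = 0.00187). In QCM, Vav3 differed from complete media by -0.87 (edgeR, adjusted p = 0.0898), a difference that was called with the replicate block (adjusted p = 0.00275), by both voom fits and by DESeq2, and SCM against QCM was -0.38 and was called under none of 48 alternatives. With Wnt5a, Src rose from 50.9 ± 8.73 to 76.6 ± 16.2 CPM and Abl2 from 13.3 ± 2.42 to 21 ± 5.79 CPM, both encoding non-receptor tyrosine kinases. Grip1, a scaffold that binds B ephrins, had 0.339 ± 0.48 CPM in complete media, a mean under 0.5 CPM, and 1.82 ± 0.532 CPM with Wnt5a. Grip1 passed the filter on low counts through groups in which it was higher, so no weight is given to its test. With the replicate block, Src was under the cutoff (0.58, adjusted p = 0.000728) and Abl2 was also called in SCM, at 0.63 (adjusted p = 0.0137), and between SCM and QCM, at 0.69 (adjusted p = 0.0138). Without replicate 1 of Wnt5a + IgG, neither Src (0.46), Abl2 (edgeR, adjusted p = 0.0911) nor Grip1 was called, which left Kalrn as 1 of the 4. The Wnt5a calls of Src, Abl2 and Grip1 were held in 27 of 48, 41 of 48 and 21 of 47 alternatives, while those of Kalrn and Vav3 were held in all 48 in either medium. None of the 25 genes was called for anti-Ptk7 in either medium by edgeR, at a background of 1.23% of all genes in SCM and 0.884% in Wnt5a medium.

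Canonical Wnt targets were followed beside Ephb2 and Ephb3, whose expression in the crypt is known to depend on that pathway. Of 13 tested targets, 2 were called higher in SCM (Nkd1 and Cd44), against 4.96% of all genes, and 5 with Wnt5a (Nkd1, Rnf43, Sp5, Myc and Cd44), against 8.29%, and none lower. The call of Nkd1 was made in 38 of 47 alternatives in SCM and in 23 of 47 with Wnt5a. Voom with TMM did not call it in SCM (limma, adjusted p = 0.0501). Without replicate 1 of Wnt5a + IgG, Nkd1 (edgeR, adjusted p = 0.052), Sp5 (0.52, adjusted p = 0.121) and Myc (0.46, adjusted p = 0.0717) were not called, which left 2 of the 5, and the quantile-normalized voom fit lost the same 3. Cd44, an adhesion receptor, had log2 fold changes of 0.80 in SCM (edgeR, adjusted p = 0.00493) and 1.21 with Wnt5a (edgeR, adjusted p = 2.83e-05). Axin2, Lgr5, Ascl2 and Sox9 were tested and not called in either medium. The list summed to between 978 and 1000 CPM in complete media, 988 and 1080 CPM in QCM, 1140 and 1360 CPM in SCM and 1210 and 1660 CPM with Wnt5a. With anti-Ptk7 it summed to between 1030 and 1390 CPM in SCM and 1120 and 1760 CPM in Wnt5a medium.

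Markers of intestinal cell types were called in the comparisons in which Epha2, Epha4 and Efnb2 were called, and in others too. Of 7 enterocyte markers, 4 were called higher in SCM and 3 with Wnt5a, and of 5 Paneth cell markers 2 were called higher in each, against 4.96% of all genes higher in SCM and 8.29% with Wnt5a. The Paneth cell marker Lyz1 went the other way with Wnt5a, at -0.35 (edgeR, adjusted p = 0.0403), under the cutoff, and the summed Paneth cell markers had a median of 1670 CPM in complete media and 1600 CPM with Wnt5a. In QCM, where none of the 9 genes was called, 3 enterocyte markers (Alpi, Fabp1 and Apoa4) and 1 Paneth cell marker (Ang4) were called higher as well, against 0.374% of all genes in either direction, and the replicate block added Apoa1 (0.61, adjusted p = 0.00764). With anti-Ptk7, the enterocyte marker Alpi was called lower in both media, at -0.58 in SCM and -0.72 in Wnt5a on the log2 scale, and the Paneth cell marker Lyz1 was called lower in Wnt5a medium, at -0.63. The call of Alpi in SCM lay at the cutoff and was made in 21 of 48 alternatives, whereas that in Wnt5a was made in 46 of 48 and that of Lyz1 in 42 of 48. The other members of these lists were not called with the antibody. Fabp1 differed by 0.38 in SCM and 0.27 in Wnt5a, Ang4 by 0.30 and 0.39, and Mmp7 by -0.37 and -0.33. The median log2 difference over the 5 Paneth cell markers was -0.37 in SCM and -0.54 in Wnt5a. Over the 7 enterocyte markers it was -0.03 and -0.15. Summed Paneth cell markers had medians of 2020 CPM with IgG and 1530 CPM with anti-Ptk7 in SCM. In Wnt5a medium the medians were 1600 and 1090 CPM, and the ranges overlapped in both media. Between SCM and QCM, the Paneth cell marker Mmp7 was called higher, at 0.68 (edgeR, adjusted p = 0.022), and with the replicate block, under which Epha2 and Epha4 were called there, Krt8 was also higher, at 0.64 (adjusted p = 1.41e-06), and Smoc2 and Neurog3 were lower, at -0.61 (adjusted p = 6.03e-06) and -0.59 (adjusted p = 0.0453). Against complete media, 1.12% of all genes were called lower in SCM and 1.88% with Wnt5a. Of 6 crypt base stem cell markers, Smoc2 was called lower in both comparisons. Of 3 tested tuft cell markers, Dclk1 and Trpm5 were called higher with Wnt5a, each in 42 of 47 alternatives. Trpm5 was called by neither voom fit, and its log2 fold change of 1.32 was 0.90 without replicate 1 of Wnt5a + IgG (edgeR, adjusted p = 0.118) and 0.71 with all libraries numbered 1 left out (edgeR, adjusted p = 0.199). Of 5 enteroendocrine markers, Neurog3, a factor of endocrine progenitors, was called lower in both media. No goblet cell marker was called. The epithelium marker Krt8, a keratin, had log2 fold changes of 1.08 in SCM and 1.25 with Wnt5a, and Cdh1 was called higher with Wnt5a. The part of cell composition in the values of the 9 genes was not tested.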

How the data were processed

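RNA-seq was performed by the authors on jejunal organoids of C57BL/6 mice. Libraries were made from 2 ng of RNA with the Smart-Seq V4 kit. The authors aligned reads with HTSeqGenie and GSNAP to mm10 and deposited whole-number counts per gene, without normalization, for 52636 genes in each of 36 libraries. Reads within coding sequences were counted, and neither annotation nor use of the strand is given in the sources used here. Smart-Seq V4 libraries carry no molecular identifiers, so reads are not independent molecules.

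Symbols and positions came from GENCODE on GRCm38. Genes were kept with filterByExpr (15497 tested), and libraries were scaled by TMM (factors 0.908 to 1.03). The quasi-likelihood test of edgeR 4.0.16 (R 4.3.3) was fitted in one model of 6 group means. Benjamini-Hochberg adjustment covered every tested gene, and a call needed an adjusted p below 0.05 with more than a 1.5-fold change. Log2 CPM used a prior count of 2. Tests are two-sided. The study's methods name voom with limma, which is given as an alternative (limma 3.58.1), as is DESeq2 1.42.0. Other alternatives were other scalings, other filters, a replicate block, only the groups compared, other fold-change cutoffs and each library left out in turn. The code was tested on simulated data.

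Group and replicate number were taken from the labels. Libraries with the same number in different groups had a mean correlation of deviations from group means of 0.092, against -0.018 for different numbers, and 34 of 90 pairs were over 0.1. The design text numbers the mice 1 to 6, as the replicates are numbered, without stating that these numbers are the same. The test was therefore made without the replicate number, and a fit with it as a block is given beside a result where it changes the call. Replicates of a group differed by a chi-square per gene of 7.28 to 81, and each library was counted as a replicate. That value cannot show whether any was a repeat library of the same RNA, since reads are not independent molecules. P values measure the spread between these libraries.

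The 9 genes and the gene lists were chosen with earlier results of these data known. The genes named are the 9 in every comparison, other family members, genes of lists called where a member was called, and for each member the 3 protein-coding genes with the highest Pearson r among those with a mean log2 CPM over 1.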

Additional observations from a re-analysis of the deposited data

Results flagged for a closer look

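In 54 groups of 6 libraries (9 genes in 6 groups), the highest or the lowest library was tested for its gap to the next, and 6 stood apart, where chance gives about 1 in 20, or 2.7. Of these, 5 were libraries numbered 1. For Epha2, Wnt5a + IgG replicate 1 held 194 CPM, with the next library at 106 CPM, and Wnt5a + anti-Ptk7 replicate 1 held 147 CPM, with the next at 86.6 CPM. For Epha4, replicate 1 held 17.6 CPM in complete media + IgG, with the next at 11.5 CPM, and 49.9 CPM in Wnt5a + IgG, with the next at 31.1 CPM. Ephb2 in Wnt5a + IgG replicate 1 was at 137 CPM, with the next at 118 CPM. The exception was SCM + IgG replicate 3, which was low for Epha4 at 15.2 CPM, with the next at 23.4 CPM. What sets these libraries apart was not tested.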

How the results depend on the processing

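Over all alternatives, no called value of the 9 genes changed direction, and the mean CPM of each gene in each group moved by less than its SD under 3 other scalings. The calls of Epha2 and Epha4 with Wnt5a and of Epha4 in SCM were made in all 48 alternatives, that of Epha2 in SCM in 46 and that of Efnb2 with Wnt5a in 47. Epha2 in SCM lay between 0.84 and 1.21 on the log2 scale and Epha2 with Wnt5a between 1.05 and 1.58. With no fold-change cutoff, 5 of the 9 genes were called with Wnt5a, against 12.5% of all genes called higher, and with a fold change over 2 only 1 in SCM, against 3.1% called higher. The 5 include Ephb3, whose adjusted p was 0.17 with all libraries numbered 1 left out (edgeR). With the replicate block, 2 genes were called between SCM and QCM and 1 for anti-Ptk7 in SCM, and the block changed no other call of the 9 genes. A fit of only the groups compared called 2 genes between SCM and QCM (Epha2, adjusted p = 0.0468, and Epha4, adjusted p = 0.0472, edgeR), against 1.85% of all genes in either direction. With all libraries numbered 1 left out, an alternative chosen after seeing the data, 1 gene was called between SCM and QCM (Epha4, edgeR, adjusted p = 0.024) and 1 for anti-Ptk7 in SCM (Epha2, for which number 1 alone went the other way), against 1.79% and 1.39% of all genes in either direction. In that fit 2 genes remained in SCM and 3 with Wnt5a, being the same genes, against 6.15% and 8.69%. Leaving out each library in turn gave between 1 and 2 called genes in SCM, 1 without replicate 3 of complete media, and the cause was not tested. The lowest count of the 9 genes was 85, and Ephb6 and Grip1 rest on few counts. The effect of depth on the calls was not tested.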
